A study of Mus musculus with 11 samples.

Results

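The retinal pigment epithelium (RPE) is the pigmented cell layer behind the photoreceptors, and the visual cycle is the chain of reactions by which it turns spent all-trans-retinol back into the 11-cis-retinal that opsins need. The genes described here are 9 listed genes of that layer and cycle, Rpe65, Lrat, Rdh5, Rdh10, Rlbp1, Rgr, Stra6, Best1 and Rrh, taken by symbol from the 38393 genes of the deposited files. Each symbol matched 1 Ensembl gene, and 8 of the 9 genes were among the 15767 genes tested for a difference between genotypes. Their values were compared between wild-type (WT) mice and mice homozygous for a deletion of miR-211, a microRNA present in the RPE and the neural retina.

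In the cycle, retinol enters the RPE cell through the membrane receptor Stra6 and is esterified by Lrat. Rpe65 then turns the ester into 11-cis-retinol, the dehydrogenases Rdh5 and Rdh10 oxidise retinol to retinal, and the binding protein CRALBP, encoded by Rlbp1, carries the 11-cis form. Rgr and Rrh encode opsins of the RPE that bind retinal without signalling to the visual neurons. Best1 encodes bestrophin-1, a chloride channel of the RPE basolateral membrane. Rlbp1, Rgr and Rdh10 are also used by Müller glia, the supporting glia of the retina.

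The files held 11 libraries, 5 WT (WT1 to WT5) and 6 miR-211-/- (KO1 to KO6), of whole eyes from mice 1 to 2 months old on a C57BL/6 background (C57Bl/6J in the study's methods), with age-matched littermates as controls. Retina, RPE, choroid, sclera and ciliary body were kept, and the lens and cornea were taken off before RNA extraction. In such a mixed tissue, fewer RPE cells and less RNA per RPE cell cannot be told apart. The knockout line lacks the stretch of the locus that holds the microRNA precursor. The knockout animals were all male whereas the WT animals were of both sexes, so that genotype and sex are partly mixed; the labels do not give the sex of each library.

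The sequences of 2 microRNAs show what was deleted and what was not. The mature strand of miR-211 lies on chromosome 7 (chr7:64205831-64205852, plus strand, GRCm38.p6) and that of its paralog miR-204 on chromosome 19 (chr19:22750610-22750631, plus strand). Both are given from RefSeq with the seed, bases 2 to 8 from the 5′ end, in capitals.
miR-211-5p: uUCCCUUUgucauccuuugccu
miR-204-5p: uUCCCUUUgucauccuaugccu
The 2 strands have the same seed and differ at 1 of 22 positions, U17A from miR-211 to miR-204, counted from the 5′ end. The paralog was not deleted.

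The libraries held between 20282241 and 36317673 counts assigned to genes. The deleted microRNA gene Mir211 had 0 counts in all 11 libraries, WT included, so these libraries cannot check the deletion through it, and its host gene Trpm1 ranged from 330 to 495 CPM (counts scaled to a common library size) in WT and from 412 to 464 CPM in miR-211-/-. Xist, the RNA that silences 1 X chromosome in female cells, was between 794 and 1634 CPM in 3 WT libraries, WT1, WT3 and WT5. It was at most 1.29 CPM in the other 8. By Xist, WT1, WT3 and WT5 came from females, and WT2, WT4 and all miR-211-/- libraries from males. The study's methods also count 3 females among the WT animals. Xist was the single gene called between genotypes (log2 fold change -9.54, edgeR likelihood-ratio test, adjusted p = 6.35e-05, threshold 0.1). The study reported more genes at the same threshold, most of them lower in miR-211-/-. The reason for this difference was not tested. The study named its libraries in 2 ways, by a mouse number (WT1, WT2, KO1, KO2 and KO3) or by an age (WT3, WT4, WT5, KO4, KO5 and KO6), and these are called the mouse-number series and the age series below. RNA of neighbouring tissues varied between libraries. The summed level of 6 adipocyte genes ran from 9.92 to 415 CPM in WT and from 9.13 to 202 CPM in miR-211-/-. That of 6 skeletal muscle genes ran from 616 to 5091 and from 547 to 4634 CPM, in the same order. That of 8 lens crystallin genes ran from 19.4 to 90206 and from 4.83 to 25490 CPM. The 3 cornea genes summed to 1052 to 7077 CPM in WT and 1485 to 8020 CPM in miR-211-/-, although the cornea had been removed.

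**Figure D1:**
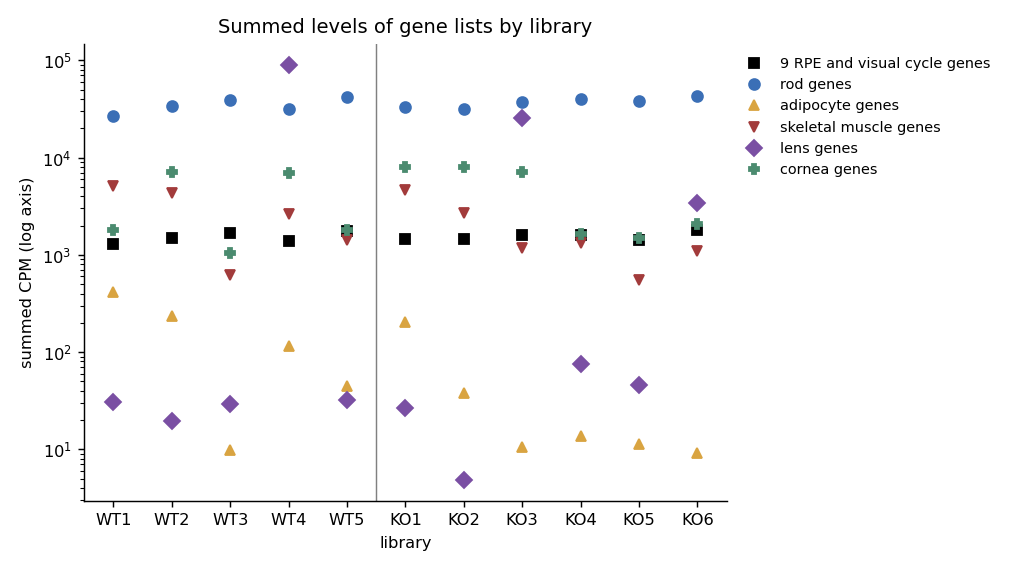
Summed CPM of the 9 RPE and visual cycle genes and of 5 marker lists of other cell types (log axis) in each of the 11 libraries, with WT on the left and miR-211-/- on the right of the line. The RPE and visual cycle genes stayed between 1286 and 1812 CPM, while the lens genes ran from 4.83 to 90206 CPM.

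The 8 tested RPE and visual cycle transcripts differed between the genotypes by at most 0.13 on the log2 scale in fitted value. Of the 8 tested genes, 0 were called at an adjusted p under 0.1 (edgeR likelihood-ratio test), where 0.00634% of all tested genes were called, and 0 had an unadjusted p under 0.05, where 2.09% of all tested genes did. With edgeR's quasi-likelihood test and with DESeq2 the smallest unadjusted p among the 8 was 0.182 and 0.158. In log2 fold change, 5 of the 8 were above 0 (higher in miR-211-/-) and 3 below, against 51.1% above 0 among all tested genes, and their median was 0.02 against 0.00 for all. The 8 fold changes ran from -0.11 to 0.13 on the log2 scale, and their 95% intervals together reached from -0.41 to 0.42, which is 0.754-fold to 1.34-fold. In an exact permutation test over all ways of assigning the genotypes to the libraries, 0 of the 8 had an unadjusted p under 0.05 (3.39% of all tested genes did), with a smallest possible p of 0.00216. In CPM the WT and miR-211-/- ranges overlapped for all 8 genes; the ranges of 0.184% of all tested genes did not overlap.

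Rpe65 encodes the isomerohydrolase that makes 11-cis-retinol, and its gene lies on chromosome 3 (159599175 to 159625321, plus strand, GRCm38). Its level was 90.2, 132, 137, 122 and 152 CPM in WT1 to WT5, and in miR-211-/- it had a lowest value of 98.5, a median of 141 and a highest value of 157 CPM. WT1 and KO5 were the lowest libraries, and the other 9 lay between 122 and 157 CPM in both genotypes. The means were 127 ± 22.97 CPM (SD, n = 5) in WT and 137 ± 20.5 CPM (SD, n = 6) in miR-211-/-. The log2 fold change was 0.11 with a 95% interval from -0.20 to 0.42 (edgeR likelihood-ratio test, adjusted p = 1.00). WT1, with the lowest Rpe65, also had the highest summed adipocyte level (415 CPM) and muscle level (5091 CPM), whereas KO5, the next lowest in Rpe65, had 11.4 CPM of adipocyte genes and the lowest muscle level of all (547 CPM). The part of these tissues in the Rpe65 level was not tested.

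Rpe65 was the gene of the list whose genotype difference moved most between the series. Within the mouse-number series the log2 fold change was 0.40 (standard error 0.20, edgeR likelihood-ratio test, adjusted p = 0.98, 2 WT and 3 miR-211-/- libraries), and within the age series it was -0.11 (standard error 0.19, adjusted p = 1.00, 3 and 3 libraries). The difference of these effects was 0.51 with a standard error of 0.29 (unadjusted p = 0.0840 and adjusted p = 1.00 for the edgeR interaction term). The 2 WT libraries of the mouse-number series were WT1 at 90.2 CPM and WT2 at 132 CPM, beside 137 to 157 CPM in KO1 to KO3. Over all libraries the log2 fold change was 0.11, and without WT1 it was 0.0085. The part of WT1 in the difference between the series was not tested. An interaction was called for 0.019% of all tested genes and for 0 of the 8 genes described here.

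Lrat, the lecithin retinol acyltransferase that esterifies retinol, lies on chromosome 3 (82892579 to 82903973, minus strand). Its level was 86.0, 107, 161, 124 and 128 CPM in WT1 to WT5, and ran from 92.4 through a median of 122 to 157 CPM in miR-211-/-. It had the widest spread of the 8 tested genes, with a coefficient of variation within genotypes of 20.8%, where the median of all tested genes was 13.7%. The log2 fold change was 0.02 (95% interval -0.34 to 0.37, edgeR likelihood-ratio test, adjusted p = 1.00), with WT1 the lowest and WT3 the highest of all 11 libraries.

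Stra6, the receptor for retinol-binding protein, lies on chromosome 9 (58063788 to 58153996, plus strand). Its level was 72.6, 67.9, 96.1, 83.0 and 103 CPM in WT1 to WT5, and ran from 61.6 through a median of 85.0 to 103 CPM in miR-211-/-. In each genotype the lowest 2 libraries were from the mouse-number series. The means of 84.5 ± 15.0 CPM (SD, n = 5) and 83.7 ± 16.4 CPM (SD, n = 6) gave a log2 fold change of -0.02 (95% interval -0.34 to 0.31, edgeR likelihood-ratio test, adjusted p = 1.00).

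Rdh5 and Rdh10 are the retinol dehydrogenases of the list. Rdh5 lies on chromosome 10 (128913593 to 128922888, minus strand), and was at 132, 116, 134, 109 and 129 CPM in WT1 to WT5 and from 96.9 through a median of 112 to 141 CPM in miR-211-/-. Its log2 fold change, -0.11 (95% interval -0.35 to 0.13, edgeR likelihood-ratio test, adjusted p = 1.00), was the lowest of the 8 and within the spread of both groups. Rdh5 shares 720 exonic bases on the same strand with Bloc1s1, a gene at a median of 27.1 CPM, so reads could have been divided between the 2 genes and the level of Rdh5 is uncertain by that share. Rdh10 lies on chromosome 1 (16105774 to 16133734, plus strand), and was at 110, 142, 147, 115 and 160 CPM in WT1 to WT5 and from 130.5 through a median of 139 to 157 CPM in miR-211-/-. The miR-211-/- values of Rdh10 lay inside the WT range, with an SD of 9.66 CPM against 21.4 CPM in WT, and the log2 fold change was 0.07 (95% interval -0.18 to 0.31, edgeR likelihood-ratio test, adjusted p = 1.00).

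Rlbp1 had the largest log2 fold change of the 8. The gene lies on chromosome 7 (79374870 to 79387048, minus strand). Its level was 418, 438, 468, 416 and 507 CPM in WT1 to WT5, and ran from 423 through a median of 513 to 548 CPM in miR-211-/-. Of the 6 miR-211-/- libraries, KO4, KO5 and KO6 were above all WT libraries at 539, 548 and 529 CPM, and the other 3 lay within the WT range. The means were 449 ± 38.1 CPM (SD, n = 5) and 494 ± 55.7 CPM (SD, n = 6), and the log2 fold change of 0.13 (95% interval -0.15 to 0.42) was not called (edgeR likelihood-ratio test, adjusted p = 1.00). The exact permutation test gave p = 0.175 when genotypes were exchanged over all libraries and p = 0.0650 when they were exchanged within the series, both two-sided and unadjusted, with 0.00500 the smallest p the latter allows.

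The opsins were Rgr and Rrh. Rgr lies on chromosome 14 (37034909 to 37048964, minus strand), and was at 354, 460, 497, 384 and 553 CPM in WT1 to WT5 and from 325 through a median of 437 to 551 CPM in miR-211-/-. Its lowest libraries were KO5 and WT1 and its highest WT5 and KO6, so each genotype held libraries from both ends of the range (log2 fold change -0.05, 95% interval -0.41 to 0.30, edgeR likelihood-ratio test, adjusted p = 1.00). Rrh, which encodes peropsin, lies on chromosome 3 (129804408 to 129822587, minus strand), and was at 22.3, 23.2, 24.5, 21.7 and 29.5 CPM in WT1 to WT5 and from 22.7 through a median of 24.4 to 28.0 CPM in miR-211-/-. It had the narrowest spread of the 8 genes, with a coefficient of variation within genotypes of 10.2%, and a log2 fold change of 0.03 (95% interval -0.20 to 0.25, edgeR likelihood-ratio test, adjusted p = 1.00).

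Best1 was the exception in level. The gene lies on chromosome 19 (9985174 to 10001633, minus strand) and had between 7 and 28 counts per library, which is 0.52 to 1.09 CPM in WT and 0.35 to 0.77 CPM in miR-211-/-. It reached 1 CPM in fewer than 5 libraries and was therefore not tested in the main fit. In a fit of all genes with at least 1 count its log2 fold change was -0.27 with a 95% interval from -0.88 to 0.34 (edgeR likelihood-ratio test, adjusted p = 1.00). Its paralog Best2 had means of 12.3 ± 2.17 CPM (SD, n = 5) and 9.55 ± 3.08 CPM (SD, n = 6), with a log2 fold change of -0.36 (edgeR likelihood-ratio test, adjusted p = 1.00), and Best3 was at 4.59 ± 0.51 CPM (SD, n = 5) and 4.47 ± 0.78 CPM (SD, n = 6).

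**Figure D2:**
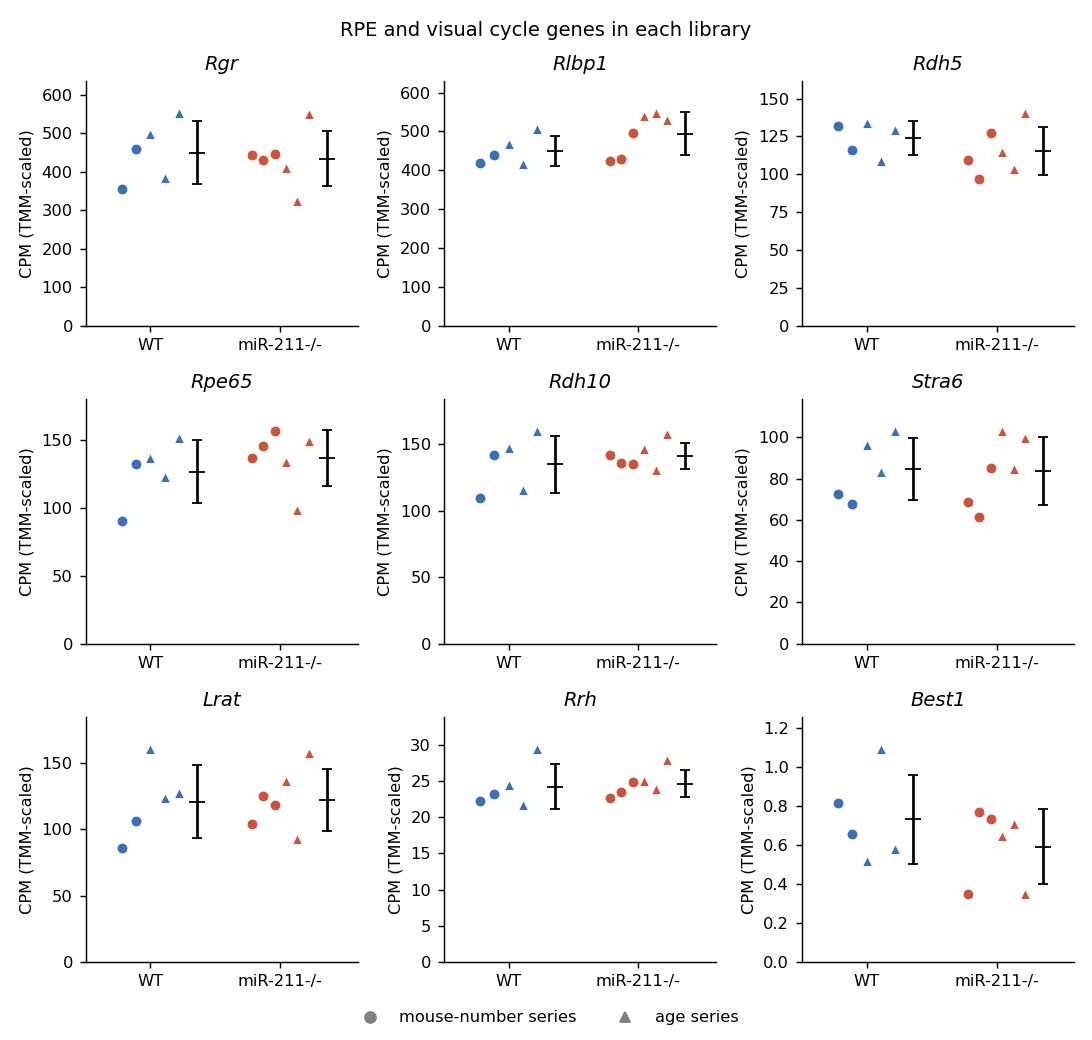
CPM on TMM-scaled library sizes of each of the 9 genes in each library (circles for the mouse-number series, triangles for the age series), with WT in blue (n = 5), miR-211-/- in red (n = 6), and the mean ± SD beside each group. The genotypes overlapped in every panel, and in the Stra6 panel the circles lay low in both genotypes, from 61.6 to 85.2 CPM, with the triangles from 83.0 to 103 CPM.

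**Figure D3:**
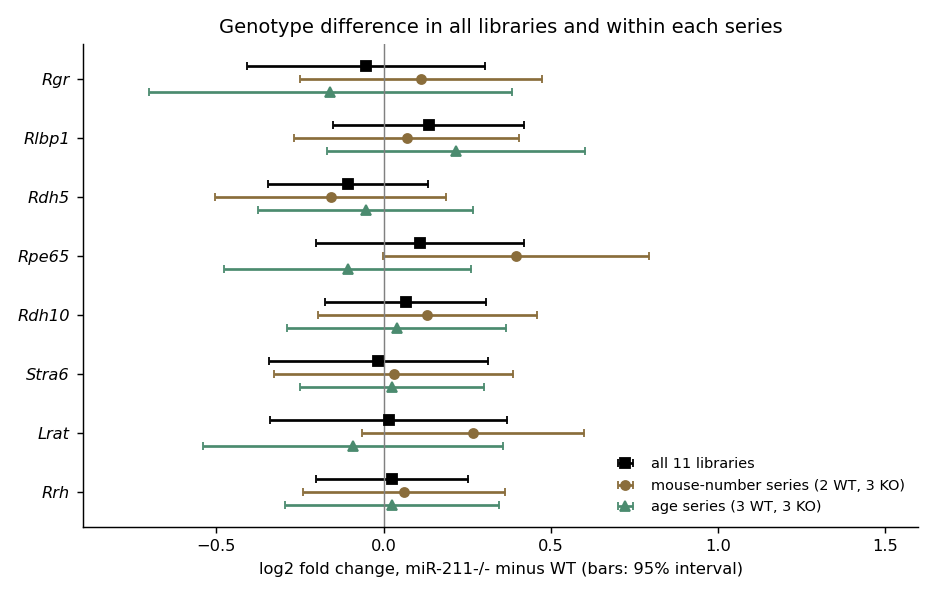
The log2 fold change of miR-211-/- over WT with its 95% interval for the 8 tested genes (log2 units), in all 11 libraries (squares), the mouse-number series (circles) and the age series (triangles). All intervals crossed 0, and Rpe65 had its estimates furthest apart, at 0.40 and -0.11.

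Compared by length as FPKM (fragments scaled for transcript length and library depth), the 9 genes kept nearly the same order in every library. Rgr was highest with a median of 272 FPKM (208 to 352), followed by Rlbp1 with 233 (173 to 274), Rdh5 with 119 (92.3 to 141), Rpe65 with 89.8 (58.2 to 101), Rdh10 with 40.2 (28.9 to 47.4), Stra6 with 34.8 (26.0 to 44.6), Lrat with 22.2 (16.3 to 31.6), Rrh with 18.0 (13.7 to 21.6) and Best1 with 0.36 (0.17 to 0.47). The order of neighbours held in all 11 libraries for Rlbp1 over Rdh5, Rpe65 over Rdh10, Stra6 over Lrat and Rrh over Best1. Rgr was above Rlbp1 in 9 of 11 libraries (exact sign-flip permutation test over libraries, two-sided, p = 0.0107), and Rdh10 above Stra6 in 9 of 11 (p = 0.00391 by the same exact test), with overlapping ranges in both pairs. The level of Rpe65 was below that of Rdh5 in 10 of 11 libraries (p = 0.00195 by the same exact test), a comparison which shares the uncertainty of Rdh5 with Bloc1s1. Lrat was above Rrh in 10 of 11 libraries (p = 0.00195 by the same exact test). Best1 stood apart, with a median library ratio of Rrh to Best1 of 50.1.

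**Figure D4:**
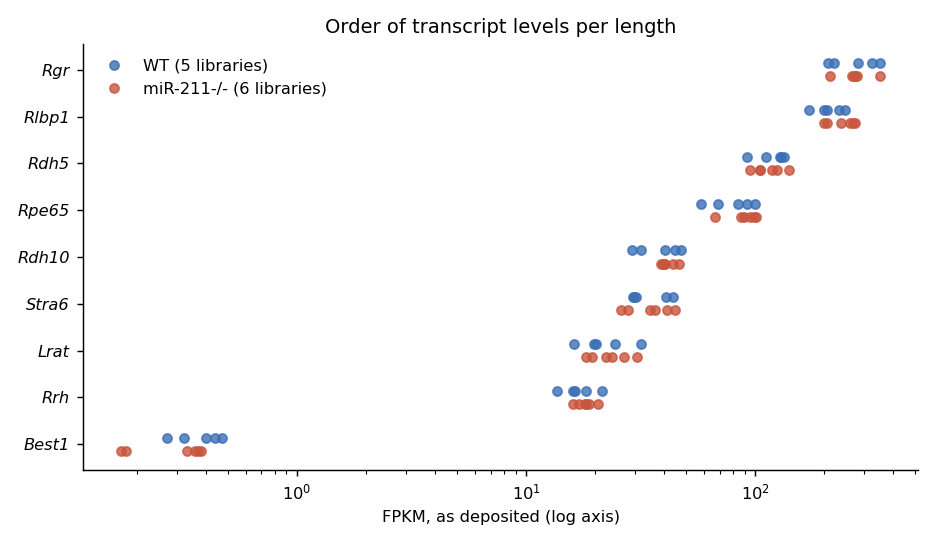
Deposited FPKM of the 9 genes on a log axis, 1 point per library, WT in blue (5 libraries) and miR-211-/- in red (6 libraries). Rgr and Rlbp1 led with medians of 272 and 233 FPKM, and Best1 lay between 0.17 and 0.47 FPKM in all 11 libraries.

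Since the share of retinal and other tissue varied between the libraries, the level of each gene was also taken relative to the mean log2 CPM of 8 rod photoreceptor genes. On this scale Rpe65 was -4.03 ± 0.09 log2 units (SD, n = 5) from the rod mean in WT and -4.004 ± 0.30 (SD, n = 6) in miR-211-/-. The difference between genotypes ran from -0.20 for Rdh5 to 0.04 for Rlbp1, and 0 of the 8 genes had an exact permutation p under 0.05 (two-sided, where 1.88% of all tested genes did). Rdh5 came closest, with -4.04 ± 0.24 (SD, n = 5) for WT against -4.24 ± 0.16 (SD, n = 6) for miR-211-/- (exact permutation p = 0.113, adjusted over all tested genes p = 1.00). Of the alternatives run on this scale for the 8 genes, 100 kept the sign without such a p, 19 turned it and 1 gave an unadjusted p under 0.05. The last was Rlbp1 without WT1, where the difference was 0.10 (exact permutation p = 0.0381, unadjusted).

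With genotype in the fit, 36.3% of all tested genes differed between the mouse-number and the age series at an adjusted p under 0.1, and 14.6% of all tested genes were lower in the mouse-number series. Of the 8 RPE and visual cycle genes, 1 was called, Stra6, with a log2 difference of -0.42 (standard error 0.11, edgeR likelihood-ratio test, adjusted p = 0.00160). In CPM, Stra6 was 71.1 ± 8.78 (SD, n = 5) in the mouse-number series and 94.9 ± 8.90 (SD, n = 6) in the age series, and an exact permutation of the series gave p = 0.00866. The difference stayed between -0.49 and -0.37 and called when each library was left out in turn. All 8 genes were lower in the mouse-number series by fitted value, from -0.02 for Rpe65 to -0.42 for Stra6, beside 49.4% of all tested genes, and 7 of these values were not called. The direction turned for Rpe65 without WT1 (0.12), WT5 (0.03) or KO6 (0.02), for Rgr without WT1 (0.0076) or KO6 (0.01), and for Rdh5 without KO6 (0.0095). Lrat, at -0.31 (adjusted p = 0.128 by the edgeR test), was called when WT4 was left out (-0.34, adjusted p = 0.0923) or KO5 was (-0.43, adjusted p = 0.00866), and without WT4 Rlbp1 (-0.25, adjusted p = 0.0345) and Rrh (-0.18, adjusted p = 0.0977) were called as well. In the same fit 6 of 6 skeletal muscle genes and 5 of 5 tested adipocyte genes were higher in the mouse-number series, and their part in the series difference of Stra6 was not tested.

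Levels were then followed across the 11 libraries as log2 CPM, a share of each library, so that all genes of a library share its total. The gene nearest to Rpe65 within the list was Rgr, with Pearson r = 0.82 (permutation p = 0.00152, adjusted over all tested genes p = 0.321) and Spearman rho = 0.77 (permutation p = 0.00766, adjusted p = 0.785). Rdh10 (r = 0.74, permutation p = 0.0137, rho = 0.64, permutation p = 0.0399) and Lrat (r = 0.71, permutation p = 0.0128, rho = 0.58, permutation p = 0.0657) came next, both with an adjusted p of 0.490 for r. Rrh had r = 0.55 and rho = 0.70 (permutation p = 0.0696 and 0.0201). Stra6 (r = 0.23, rho = 0.39), Rlbp1 (r = 0.17, rho = 0.28) and Rdh5 (r = 0.15, rho = 0.30) had the lowest values, with permutation p of 0.506, 0.602 and 0.660 for r and 0.236, 0.404 and 0.370 for rho. Of these 7 relations 0 passed an adjusted p of 0.1, which 0.0127% of all tested genes did with a positive r. Rgr ranked 58 in r with Rpe65 among all tested genes, beside the cone opsin gene Opn1sw at rank 59 (r = 0.82).

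WT1 and KO5 were the libraries farthest from the median of Rpe65. Without both, r with Rpe65 over the 9 remaining libraries was 0.71 for Rrh (exact permutation p = 0.0340), 0.62 for Rgr (exact p = 0.0771), 0.57 for Rdh10 (exact p = 0.103), 0.52 for Rlbp1 (exact p = 0.149), 0.41 for Rdh5 (exact p = 0.273), 0.18 for Stra6 (exact p = 0.637) and 0.15 for Lrat (exact p = 0.687). Rgr, Rdh10 and Lrat thus no longer had an unadjusted p under 0.05, and of these Lrat had the lowest r while Rgr and Rdh10 kept most of theirs. Without KO5 alone, r was 0.55 for Rlbp1 and 0.79 for Rdh10, and without WT1 alone it was -0.12 and 0.53. With the series means subtracted, r was 0.83 for both Rgr and Lrat and 0.77 for Rdh10. Within the age series alone (6 libraries) r was 0.95 for Rgr (exact permutation p = 0.00139, the smallest that 6 libraries allow), 0.86 for Rdh5 (exact p = 0.0139), 0.83 for Lrat (exact p = 0.0486), 0.81 for Stra6 (exact p = 0.0389), 0.72 for Rdh10 (exact p = 0.0944), 0.68 for Rrh (exact p = 0.139) and -0.06 for Rlbp1 (exact p = 0.874). All of these p-values are unadjusted, and the share of all tested genes with such values in the age series is not given here. Genes outside the list also had a high r there. The 7 cone genes ran from -0.63 for Arr3 to 0.91 for Opn1sw. The age series includes KO5, its lowest library in Rpe65, Rgr, Rdh5 and Lrat. No correlation was computed over the 5 libraries of the mouse-number series, since at least 6 were required.

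KO5 was low in Rpe65 and high in Rlbp1. It had the lowest Rgr (325 CPM) of all 11 libraries and, after WT1, the second lowest Rpe65 (98.5 CPM) and Lrat (92.4 CPM), together with the highest Rlbp1 (548 CPM). WT1 was low in all of them, with Rpe65 at 90.2, Lrat at 86.0, Rgr at 354 and Rlbp1 at 418 CPM.

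**Figure D5:**
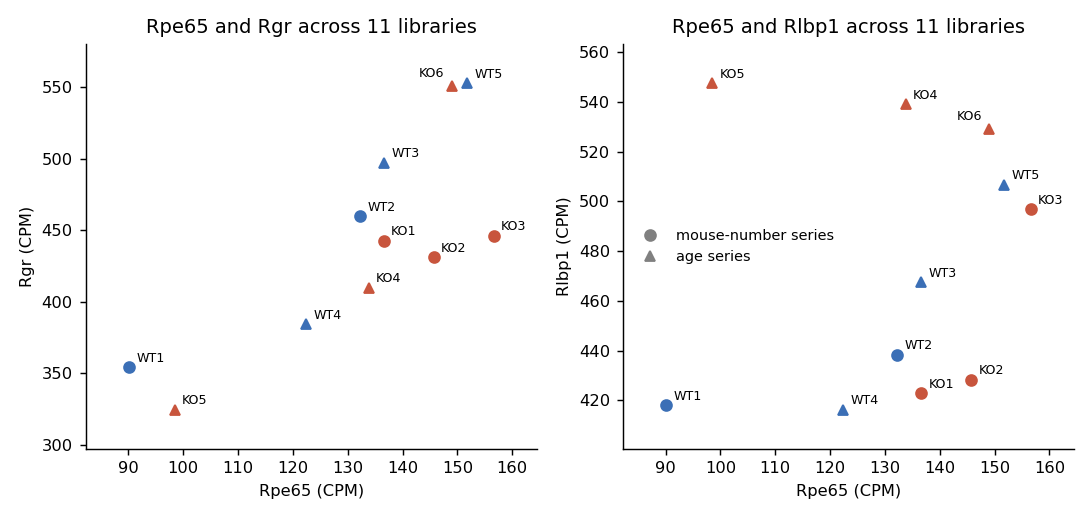
Rpe65 against Rgr (left) and against Rlbp1 (right) in CPM, 1 point per library (WT in blue, miR-211-/- in red, circles for the mouse-number series, triangles for the age series). On log2 CPM r was 0.82 for Rgr and 0.17 for Rlbp1, and without WT1 and KO5 it was 0.62 and 0.52, KO5 being low in Rpe65 and high in Rlbp1.

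Over all tested genes, the 8 with the highest Pearson r with Rpe65 were Stxbp4 (0.94), Pphln1 (0.92), Fam45a (0.92), Vps50 (0.91), Tmem245 (0.91), Zfp617 (0.91), Rabgef1 (0.90) and Rad54b (0.90), over the 11 libraries. Among them only Fam45a passed the adjustment over all tested genes (r = 0.92, permutation p = 1e-05, the smallest that 100000 resamples can give, adjusted p = 0.0788; rho = 0.95, permutation p = 7e-05, adjusted p = 0.622) and still had r = 0.90 without WT1 and KO5. None of these 8 genes is a listed RPE, pigment or retinoid gene. Of the listed genes, Slc24a5, an ion exchanger of the melanosome, and Trpm3, the host gene of miR-204, ranked 12 and 14 in r with Rpe65 (0.89 and 0.88). Their lists did not follow Rpe65 as a whole. The other RPE genes ran from r = 0.88 for Trpm3 to -0.59 for Krt18, with Ttr at -0.14. The pigment genes ran from 0.89 for Slc24a5 to 0.20 for Gpr143.

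The rod genes gave another reference for the same libraries. The mean log2 CPM of the 8 rod genes correlated positively, at an adjusted permutation p under 0.1, with 21.3% of all tested genes and with 5 of the 8 RPE and visual cycle genes. These were Rdh10 (r = 0.84, permutation p = 8.3e-04, adjusted p = 0.0107), Rlbp1 (r = 0.81, permutation p = 0.00151, adjusted p = 0.0129), Rrh (r = 0.76, permutation p = 0.00666, adjusted p = 0.0270), Stra6 (r = 0.71, permutation p = 0.0127, adjusted p = 0.0407) and Lrat (r = 0.66, permutation p = 0.0276, adjusted p = 0.0693), with rho of 0.82, 0.82, 0.93, 0.78 and 0.72 and permutation p for rho of 0.00336, 0.00316, 1.8e-04, 0.00677 and 0.0167 in that order. Rgr (r = 0.54, rho = 0.65), Rpe65 (r = 0.54, rho = 0.57) and Rdh5 (r = 0.21, rho = 0.47) did not pass for r (adjusted permutation p = 0.163, 0.172 and 0.647). Without WT1 and KO6, the libraries farthest from the rod median, r was 0.85 for Rlbp1 (exact permutation p = 0.00934), 0.80 for Stra6 (exact p = 0.0151), 0.77 for Rrh (exact p = 0.00259), 0.63 for Rdh10 (exact p = 0.0563) and 0.28 for Lrat (exact p = 0.464). Lrat and Rdh10 thus no longer had an unadjusted p under 0.05 without them, Rdh10 with an r still at 0.63. With series means subtracted, r was 0.37 for Stra6 (permutation p = 0.257) and 0.48 for Lrat (permutation p = 0.126), and 0.89, 0.69 and 0.69 for Rdh10, Rlbp1 and Rrh.

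The promoters of Rpe65, of Rgr, the member with the highest r with Rpe65, and of Rlbp1, 1 of the members with the lowest, are printed from RefSeq (GRCm38.p6), 250 bases before to 50 after the annotated start, 5′ to 3′ on the gene's strand. Capitals mark matches, on either strand, to 1 of 5 short motifs: the E-boxes CACGTG and CATGTG, which MITF-type factors bind, TAATCC, which OTX and CRX bind, ACAATG of SOX factors, and TAATTA of homeodomain factors; no matches overlapped.
Rpe65 (chr3:159598931-159599230, plus strand): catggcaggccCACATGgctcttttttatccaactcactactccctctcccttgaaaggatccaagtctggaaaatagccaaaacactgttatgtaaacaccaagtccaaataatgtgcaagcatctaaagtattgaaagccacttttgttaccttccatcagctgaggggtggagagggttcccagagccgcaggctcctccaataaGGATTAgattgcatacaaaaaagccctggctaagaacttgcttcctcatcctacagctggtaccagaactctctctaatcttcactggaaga
Rgr (chr14:37048965-37049264, minus strand): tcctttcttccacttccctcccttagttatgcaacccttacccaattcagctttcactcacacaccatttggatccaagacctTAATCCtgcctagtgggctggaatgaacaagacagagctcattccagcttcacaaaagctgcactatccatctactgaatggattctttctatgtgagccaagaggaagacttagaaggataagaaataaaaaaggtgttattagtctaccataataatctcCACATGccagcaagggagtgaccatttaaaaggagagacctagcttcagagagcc
Rlbp1 (chr7:79386978-79387277, minus strand): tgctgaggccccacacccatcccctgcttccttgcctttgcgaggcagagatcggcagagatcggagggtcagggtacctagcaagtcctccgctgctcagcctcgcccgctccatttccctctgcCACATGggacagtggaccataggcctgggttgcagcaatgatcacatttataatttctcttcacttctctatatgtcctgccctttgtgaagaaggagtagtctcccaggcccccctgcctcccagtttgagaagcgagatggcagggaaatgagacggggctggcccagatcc
The windows of Rpe65 and Rgr each held CATGTG and TAATCC, in either orientation, and that of Rlbp1 held CATGTG. In Rpe65 the TAATCC match began 42 bases before the start and in Rgr 167 bases before it. Among all 32851 promoter windows of this length, 14.2% held CATGTG, 7.06% TAATCC, 12.6% ACAATG, 7.15% CACGTG and 5.29% TAATTA. RefSeq windows were matched for 8 of the 9 genes, 11 windows in all, of which 3 held CATGTG, 3 TAATCC, 1 ACAATG and 0 either of the others. A match is a run of letters and not a measured binding site.

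The rest of the RPE and of retinoid handling stood as follows in the genotype comparison, each list beside the 51.1% of all tested genes with a log2 fold change above 0. Of 10 other RPE genes, all tested, 3 were above 0 and 7 below, and their median was -0.08 on the log2 scale with 0 called. The most abundant were Ttr, which carries retinol-binding protein and thyroxine, at 694 ± 151 CPM (SD, n = 5) in WT and 628 ± 76.6 CPM (SD, n = 6) in miR-211-/-, and Enpp2 at 323 ± 37.2 and 323 ± 46.1 CPM. Otx2, a transcription factor of RPE and photoreceptors, was at 187 ± 18.4 and 193 ± 15.7 CPM, and Trpm3 at 156 ± 23.02 and 157 ± 20.9 CPM. Of 9 pigment genes, which RPE and choroidal melanocytes share, 1 was above 0 and 8 below, with a median of -0.11 and 0 called. The largest pigment transcript, Dct, an enzyme of melanin synthesis, was at 774 ± 74.4 CPM (SD, n = 5) and 660 ± 101 CPM (SD, n = 6), and its log2 fold change was -0.23 (standard error 0.17, edgeR likelihood-ratio test, adjusted p = 1.00). Tyrp1 was at 379 ± 73.9 and 348 ± 51.2 CPM, Pmel at 444 ± 121 and 420 ± 56.1 CPM, and Slc24a5 at 56.0 ± 9.41 and 58.9 ± 6.04 CPM.

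Of 20 other genes of retinoid transport and metabolism, 7 were above 0 and 13 below, with a median of -0.08 and 0 called. The most abundant were genes of the photoreceptor side of the cycle: Rbp3, the retinoid carrier between photoreceptors and RPE, at 3241 ± 590 CPM (SD, n = 5) in WT and 3434 ± 679 CPM (SD, n = 6) in miR-211-/-, Abca4, the flippase of outer segment discs, at 1144 ± 236 and 1205 ± 136 CPM, and Rdh12 at 295 ± 49.4 and 316 ± 16.5 CPM. Unadjusted p under 0.05 was reached by 2 of the 20 genes, beside 2.09% of all tested genes, both with lower means in miR-211-/-: Rbp4, the serum retinol-binding protein that Stra6 receives retinol from, and Aldh1a2, a retinoic acid synthase. Rbp4 was at 2.96 ± 2.00 CPM (SD, n = 5) and 1.23 ± 0.35 CPM (SD, n = 6), and its log2 fold change was -1.27 (standard error 0.41, edgeR likelihood-ratio test, unadjusted p = 0.00203, adjusted p = 1.00). Its highest libraries were WT1 at 6.26, WT2 at 3.15 and WT5 at 2.36 CPM, and WT1 and WT2 were also those with the highest summed adipocyte levels, 415 and 237 CPM. KO1, at 202 CPM of adipocyte genes, was among the miR-211-/- libraries, none of which exceeded 1.67 CPM of Rbp4, and WT5 had 45.1 CPM of adipocyte genes. The study named Rbp4 among its downregulated genes, whereas it was not called here. The part of adipose tissue in Rbp4 was not tested. Aldh1a2 was at 15.02 ± 1.61 and 12.005 ± 1.85 CPM, and its log2 fold change was -0.33 (standard error 0.15, edgeR likelihood-ratio test, unadjusted p = 0.0247, adjusted p = 1.00).

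Among other cell types of the retina, the 6 Müller glia genes had a median log2 fold change of -0.00 with 2 above 0 and 4 below, the 8 rod genes one of 0.08 with 7 above and 1 below, and the 7 cone genes one of -0.01 with 3 above and 4 below. The Müller glia gene Glul was at 1916 ± 259 CPM (SD, n = 5) and 1886 ± 121 CPM (SD, n = 6). The adipocyte, skeletal muscle and lens lists had medians of -2.01, -0.54 and -2.11, the cornea list one of 0.34 and the endothelium list one of -0.36, with 0 called in each. The lens level came from few libraries. Its sum was 90206 CPM in WT4, 25490 CPM in KO3 and 3382 CPM in KO6, and from 4.83 to 74.5 CPM in the rest of both genotypes.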

How the data were processed

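The authors extracted total RNA from mouse eyes without lens and cornea, made TruSeq libraries, sequenced them as paired reads of 100 bases and assigned the reads to Gencode M4 genes with RSEM 1.2.19. Per the file headers, each deposited file holds RSEM expected counts and FPKM per gene. These expected counts were rounded, and a gene was kept where 5 or more libraries reached 1 CPM (15767 genes). Genotypes were compared over all 11 libraries with edgeR 4.0.16 (TMM scaling, likelihood-ratio test, genotype as the only term, Benjamini-Hochberg adjustment, threshold 0.1), after the study's methods. CPM are on TMM-scaled library sizes; log2 CPM used a prior count of 2. FPKM were used as the authors deposited them for the order of genes, and as log2(FPKM + 0.1) in alternatives. Intervals of fold changes are 95% intervals from the fitted standard error. Genotypes were permuted over all assignments, or all those within the library series; correlations used 100000 resamples, or all permutations for 9 or fewer libraries. Libraries left out of a fit leave the pooled spread to stand for the group. Replicates are separate animals per the study's methods.

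The library series were taken from the names under which the study tabulated its libraries, by matching columns proportional to each library's counts. The values of that table served only for this matching. Gene symbols and positions come from Gencode M21 (GRCm38), which matched 36639 of 38393 identifiers (95.4%); sequences come from RefSeq. The members and lists were chosen with earlier results of these data known. All 9 members were named; of each list the genes with unadjusted p under 0.05 and up to 4 most abundant, the 8 genes with the highest r with Rpe65, and genes overlapping a member; some genes that this rule names are not reported here. Of those overlaps, Rbm46os and Gm16131 had median levels of 0 CPM and Ccdc33 1.05 CPM, and shared 0 exonic bases with Lrat and Stra6. DESeq2 1.42.0 and limma 3.58.1 served for alternatives. The fits, permutations and correlations were tested on simulated data. The correlation with rod genes and the tests of the series were added after seeing the data. No term for sex was fitted. The labels do not give the sex of each library, and Xist marks WT1, WT3 and WT5 as female.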

Additional observations from a re-analysis of the deposited data

How the results depend on the processing

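The count of 0 RPE and visual cycle genes called held under all 23 alternatives. The median log2 fold change of the 8, 0.02 in the main fit, moved by less than the spread between samples but turned sign: it was -0.030 with the replicate block, -0.015 within the age series, 0.091 within the mouse-number series and -0.042 to 0.085 with 1 library left out (below 0 without WT1, WT2 or KO6). The number of all genes called was 1 in the main fit, 0 with the quasi-likelihood test and with limma on FPKM (0.1 or 1 added), 2 with DESeq2, with a filter of 1 count in any library and within the mouse-number series, 10 with the library series as a covariate or the replicate block, 36 within the age series, and 1 to 11 with 1 library left out (11 without KO1). The number of the 8 genes below 0 was 3 in the main fit, 5 with the replicate block, 1 within the mouse-number series and with FPKM at either pseudocount, and 1 to 5 with 1 library left out. The replicate numbers were not taken as pairs. The correlation of same-numbered libraries' deviations ran from -0.33 to 0.63 over 5 numbers, the lowest for number 3, whose libraries are from different series. In all, 3 of 5 WT libraries correlated best with their own number. These values do not settle whether the numbers are pairs, and the block changed no call among the 8.

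Fold changes near 0 turned sign, none of them called. For the fitted log2 fold change these were Rpe65 within the age series (-0.11), Lrat with the replicate block (-0.052) and within the age series (-0.092), Rgr within the mouse-number series (0.11) and with FPKM (0.0024 at either pseudocount), Rrh with the replicate block (-0.0074), and Stra6 without TMM factors (0.031), with the series covariate (0.026), within the mouse-number (0.030) and age series (0.025) and with FPKM (0.0096 at either pseudocount). With 1 library left out it ran from -0.084 to 0.14 for Lrat, -0.13 to 0.032 for Rgr, -0.085 to 0.065 for Stra6 and -0.014 to 0.10 for Rrh. The permuted difference turned with FPKM for Rgr (0.0024) and Stra6 (0.0096) and within series for Stra6 (0.022), and with 1 library left out ran from -0.0010 to 0.21 for Rpe65, -0.089 to 0.14 for Lrat, -0.13 to 0.032 for Rgr, -0.094 to 0.064 for Stra6 and -0.0053 to 0.11 for Rrh. Relative to Müller glia in place of rod genes the difference was 0.017 for Lrat, 0.070 for Rdh10 and 0.023 for Rrh, and relative to pigment genes 0.13 for Lrat, 0.18 for Rdh10, 0.051 for Rgr, 0.080 for Stra6 and 0.13 for Rrh; relative to rod genes with 1 library left out it ran from -0.023 to 0.13 for Rpe65, -0.11 to 0.030 for Lrat, -0.041 to 0.028 for Rdh10 and -0.094 to 0.00016 for Rrh. The correlation with Rpe65 ran from -0.065 to 0.51 for Rdh5 (negative without KO5) and from -0.12 to 0.55 for Rlbp1 (negative without WT1), and lost its unadjusted permutation p under 0.05 for Lrat without WT1 (r = 0.55) or KO5 (r = 0.64) and for Rdh10 without WT1 (r = 0.53). The cause was not tested for any of these. No CPM or FPKM value of the 9 genes stood apart within its genotype by Dixon's test.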
